A study of Homo sapiens with 32 samples.

Results

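The comparison described here sets a HEK293T clone that lacks IGF2BP3 directly against a HEK293T clone that lacks IGF2BP2, in total RNA. Its members were chosen by label: they are the 2 total RNA libraries of the IGF2BP3 knockout and the 2 of the IGF2BP2 knockout, 4 of the 32 libraries of the series and 4 of its 10 total RNA libraries. HEK293T is a widely used human embryonic kidney line with an abnormal chromosome set. Each knockout was made by transient transfection of plasmids that do not integrate and that carry 3 guide RNAs against the gene together with GFP. Single GFP-positive cells were then sorted, their colonies were screened for the protein, and 1 clone per gene was kept. The control cells received Cas9 and a guide RNA with no target in mammalian genes; whether they are a clone or a pool is not given in the sources used here. No group received any other treatment. Batch 3 holds replicate 1 of each knockout with control replicate 3, and batch 4 holds replicate 2 of each knockout with control replicate 4. Control replicates 1 and 2 belong to batches 1 and 2 and are quoted as levels. Otherwise they entered only 1 alternative fit, which also took in the libraries of an IGF2BP1 knockout from those batches. Because there is 1 clone per gene, the loss of the gene and the history of the clone cannot be told apart.

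IGF2BP1, IGF2BP2 and IGF2BP3 are a family of RNA-binding proteins with paired RNA recognition motifs and KH domains that bind mRNAs, many of them carrying N6-methyladenosine, and affect their stability, transport and translation. The family is abundant in the embryo and is re-expressed in many cancers. By its title the series addresses innate immune signalling, so genes of the interferon system are described in detail below, beside the genes that separate the clones most and other pathways.

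Each library held between 16179939 and 24690494 counts in genes, so 1 count in a library was worth at most 0.0618 CPM. CPM is the count of a gene scaled so that each library sums to 1000000, and is not corrected for gene length. Differences below are log2 values of the IGF2BP3 knockout minus the IGF2BP2 knockout, from edgeR's quasi-likelihood test with batch as a block. The standard error (SE) was worked back as the absolute difference divided by the square root of the F statistic of that test. Where 1 clone has few counts and the difference is large, it can be smaller than counting error alone. A gene is called where its Benjamini-Hochberg adjusted p is under 0.05 over the 18534 genes tested. Each knockout has 2 libraries of each RNA kind in batches 3 and 4. Another 2 cytoplasmic libraries of the IGF2BP3 knockout belong to batch 5, which holds no IGF2BP2 knockout or control, and were left out. The labels do not say that replicates came from separate cultures, so p-values measure only the spread between these libraries, which may be technical. The total RNA fit leaves 2 residual degrees of freedom per gene, beside a prior worth 30.7 that is shared across genes. The spread used for a gene is therefore set mostly by other genes and not by its own libraries. The 2 libraries of a clone correlated at 0.994 to 0.995 over tested genes and libraries of different clones at 0.964 to 0.966, as a description.

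The guided genes were checked first. IGF2BP2 RNA was at 74.4 and 83.2 CPM in the IGF2BP3 knockout and at 34.3 and 34.8 CPM in the IGF2BP2 knockout, against 77.5 and 73.6 CPM in the controls of the same batches. IGF2BP3 RNA was at 44.7 and 43.4 CPM in the IGF2BP3 knockout and at 71.0 and 69.8 CPM in the IGF2BP2 knockout, against 86.9 and 86.4 CPM in those controls. Each gene was therefore lower in the clone that lacks it, without overlap, though RNA of both genes was still counted there. The difference was 1.17 (SE 0.0713, adjusted p = 2.11e-15, edgeR) for IGF2BP2, on chromosome 3 (GRCh38, chr3:185643739-185825056, minus strand), and -0.70 (SE 0.0668, adjusted p = 9.08e-11, edgeR) for IGF2BP3, on chromosome 7 (chr7:23310209-23470467, minus strand). IGF2BP1, the third member of the family (chr17:48997412-49055650, plus strand), was at 333 and 361 CPM in the IGF2BP3 knockout and 337 and 369 CPM in the IGF2BP2 knockout. The clones overlapped for IGF2BP1 and the gene was not called (adjusted p = 0.529, edgeR).

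Both directions were about equally filled. Of the 18534 genes tested, 10761 were called, which is 58.1%. The IGF2BP3 knockout was higher for 5447 of them (29.4% of tested genes) and lower for 5314 (28.7%). A called difference of at least 1 on the log2 scale was met by 2141 genes (11.6%), 1279 higher in the IGF2BP3 knockout (6.9%) and 862 lower (4.65%). Most genes were thus called, and every share given for a gene group below is to be read against these percentages. The values of the 2 clones did not overlap in 10723 of the called genes, while 14530 of all tested genes (78.4%) did not overlap. The median difference over all genes was 0.007. The scaling of the libraries assumes no common shift of most genes, so this median and the even split are partly set by it. In bulk RNA, fewer cells with a transcript and less transcript per cell cannot be told apart.

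Some genes were present in one clone and close to absent in the other. In all, 38 genes had at most 3 counts in each IGF2BP2 knockout library and at least 1 CPM in both IGF2BP3 knockout libraries, and 15 genes showed the opposite pattern. The limit of 3 counts was not scaled to depth, which ran from 16179939 counts (IGF2BP2 knockout 1) to 24690494 (IGF2BP3 knockout 1). For 33 of the 38 genes the mean of the 4 controls was under 1 CPM and for 5 it was 1 CPM or more. Of the 15 genes present in the IGF2BP2 knockout, 8 had a control mean under 1 CPM and 7 had one of 1 CPM or more.

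CTSF, which encodes the lysosomal cysteine protease cathepsin F, lies on chromosome 11 (chr11:66563463-66568841, minus strand). It was at 45.7 and 42.6 CPM in the IGF2BP3 knockout and at 0.0618 and 0.0853 CPM in the IGF2BP2 knockout, with controls from 19.8 to 27.1 CPM. The IGF2BP2 knockout value is 1 count and 2 counts, so the ratio of 585 has a 95% exact counting interval of 200 to 2839 (counting error only). The controls therefore lay below the IGF2BP3 knockout and far above the IGF2BP2 knockout. SNX19, a sorting nexin on the same chromosome (chr11:130875436-130916509, minus strand), followed that order. Its values were 8.75 and 9.35 CPM in the IGF2BP3 knockout, 0 and 0.0426 CPM in the IGF2BP2 knockout and 5.55 to 7.79 CPM in the controls, a ratio of 357 (95% exact counting interval 63.8 to 14151). NAALAD2, a peptidase of the glutamate carboxypeptidase family and also on chromosome 11, was at 12.1 and 12.3 CPM against 0.803 and 0.512 CPM (log2 difference 4.24), with controls from 4.23 to 5.95 CPM.

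GALC, the lysosomal galactosylceramidase whose loss causes Krabbe disease (chr14:87837820-87993665, minus strand), was at 9.23 and 8.75 CPM in the IGF2BP3 knockout and had no count in either IGF2BP2 knockout library. Against a floor of 3 counts over both libraries it was at least 119-fold higher in the IGF2BP3 knockout. The controls stood between the clones, at 1.71 to 2.23 CPM. IRF7, the transcription factor that amplifies type I interferon production (chr11:612553-615999, minus strand), was at 5.99 and 7.31 CPM in the IGF2BP3 knockout and at 0 and 0.0426 CPM in the IGF2BP2 knockout. Its ratio was 261 (95% exact counting interval 46.5 to 10342.5), and the controls, at 0.833 to 1.37 CPM, lay above the IGF2BP2 knockout and below the IGF2BP3 knockout.

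Other genes were high in the IGF2BP3 knockout alone. DOK6, a docking protein of receptor tyrosine kinase signalling on chromosome 18, was at 9.23 and 9.35 CPM there, at 0.124 and 0.0853 CPM in the IGF2BP2 knockout and at 0.0427 to 0.172 CPM in the controls. SFRP1, a secreted WNT antagonist, was at 24.9 and 23.3 CPM in the IGF2BP3 knockout, at 1.30 and 1.28 CPM in the IGF2BP2 knockout and at 1.04 to 1.73 CPM in the controls (log2 difference 4.19, SE 0.154, adjusted p = 4.42e-21, edgeR). IGLON5, a neuronal cell adhesion protein, was at 10.0 and 10.2 CPM against 0.556 and 0.469 CPM, with controls from 0.208 to 0.802 CPM. For these 3 genes the IGF2BP2 knockout lay close to the controls. B3GALT5, a galactosyltransferase on chromosome 21 (chr21:39556442-39673137, plus strand), was at 7.57 and 9.25 CPM against 0.124 and 0.0853 CPM. The antisense gene B3GALT5-AS1 (chr21:39597147-39612821, minus strand) lies within it and was at 5.83 and 5.77 CPM against 0 and 0.128 CPM. Whether the authors' counting used strand is not given in the sources used here, so the reads of these 2 genes cannot be told apart.

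In the other direction ADM2, a secreted peptide of the calcitonin family (chr22:50481556-50486440, plus strand), was at 0.284 and 0.448 CPM in the IGF2BP3 knockout and at 31.8 and 33.9 CPM in the IGF2BP2 knockout. The controls were at 1.67 and 1.46 CPM in batches 1 and 2 and at 4.49 and 4.12 CPM in batches 3 and 4, between the clones. The log2 difference was -6.52 (SE 0.182, adjusted p = 4.53e-24, edgeR). ESRP2, an epithelial splicing regulator (chr16:68229111-68238102, minus strand, overlapping NFATC3), was at 0.446 and 0.746 CPM in the IGF2BP3 knockout and at 27.7 and 27.8 CPM in the IGF2BP2 knockout. MFAP2, a protein of elastic microfibrils (chr1:16974502-16980835, minus strand), was at 0.405 and 0.348 CPM against 17.4 and 15.6 CPM. For ESRP2 and MFAP2 the controls, at 19.1 to 23.3 CPM and 11.8 to 14.1 CPM, were nearer to the IGF2BP2 knockout, and the log2 differences were -5.59 (SE 0.174) and -5.43 (SE 0.210). With so few counts in the IGF2BP3 knockout, the SEs of ADM2, ESRP2 and MFAP2 are smaller than counting error alone.

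Further genes were higher in the IGF2BP2 knockout. OSTN, which encodes the secreted peptide osteocrin, was at 1.05 and 1.39 CPM in the IGF2BP3 knockout, 32.0 and 28.8 CPM in the IGF2BP2 knockout and 0.983 to 1.71 CPM in the controls. COL6A3, a chain of type VI collagen, was at 1.01 and 1.49 CPM against 14.03 and 15.8 CPM, with controls from 0.374 to 1.07 CPM. KRTAP19-1, a keratin-associated protein, was at 14.9 and 11.5 CPM against 114 and 107 CPM, with controls from 0.802 to 1.88 CPM. For this last gene both clones were above every control. KLHDC9, a kelch domain protein, had no count in either IGF2BP3 knockout library and was at 3.09 and 2.99 CPM in the IGF2BP2 knockout, which makes it at least 45.2-fold lower in the IGF2BP3 knockout against a floor of 3 counts over both libraries. TWIST2, a transcription factor of mesenchymal cells, was at 0 and 0.0497 CPM in the IGF2BP3 knockout and at 3.40 and 2.60 CPM in the IGF2BP2 knockout, with controls from 2.52 to 3.23 CPM, near the IGF2BP2 knockout.

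**Figure D1:**
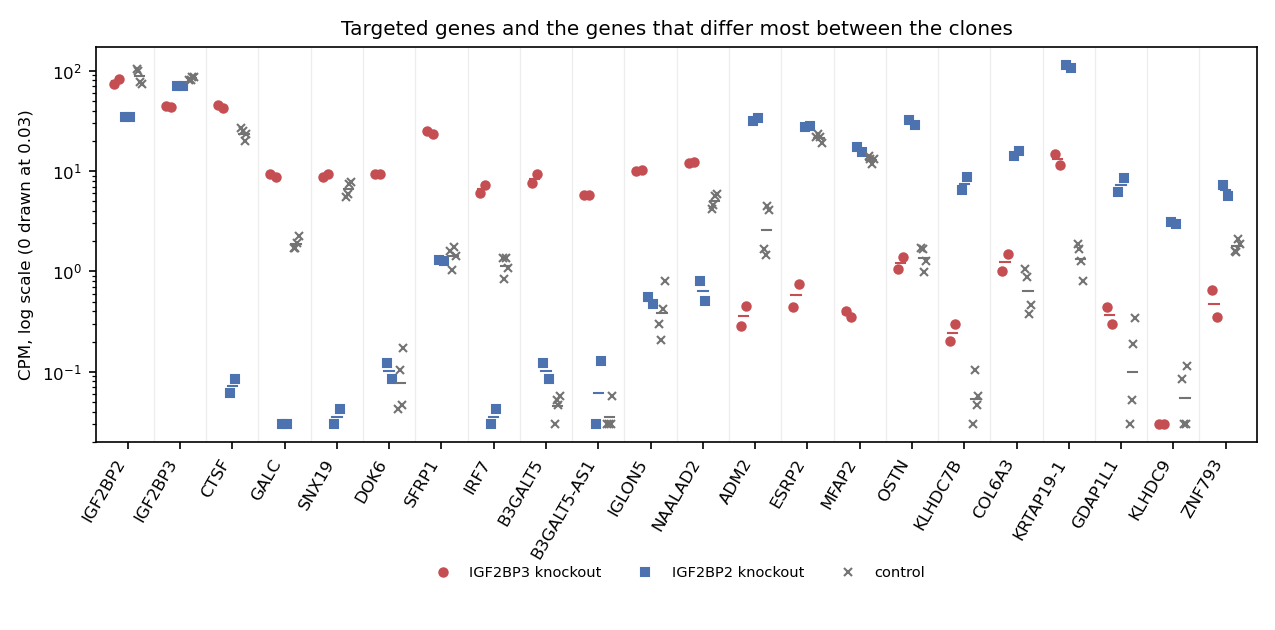
Level of the genes that separate the clones most, in CPM on a log axis with 0 drawn at 0.03, with red circles for the 2 IGF2BP3 knockout libraries, blue squares for the 2 IGF2BP2 knockout libraries and grey crosses for the 4 controls. The 2 libraries of a clone lie close together, and the controls lie near one clone for some genes (SFRP1, MFAP2) and between the clones for others (CTSF, GALC, ADM2).

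Genes with high CPM also differed. FLNA, the actin-crosslinking protein filamin A, was at 1246 and 1216 CPM in the IGF2BP3 knockout and at 487 and 512 CPM in the IGF2BP2 knockout (log2 difference 1.28). HSPA8, the constitutive HSP70 chaperone, was at 1055 and 1061 CPM against 499 and 486 CPM, SLIT2, a secreted axon guidance ligand, at 691 and 732 CPM against 290.5 and 318 CPM, and ACLY, which makes cytosolic acetyl-CoA from citrate, at 671 and 668 CPM against 294 and 295 CPM. These 4 genes were higher in the IGF2BP3 knockout, and for ACLY the controls of the same batches, at 881 and 881 CPM, were above both clones. TSC22D3, a glucocorticoid-induced leucine zipper protein, was lower in the IGF2BP3 knockout, at 644 and 644 CPM against 1629.9 and 1659 CPM, with controls from 313 to 378 CPM. OGT, the enzyme that adds O-linked N-acetylglucosamine, was at 509.5 and 543 CPM against 1107 and 1044 CPM (log2 difference -1.05).

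On some chromosomes most called genes lay in 1 direction, while on others the calls were evenly split, as on chromosome 3 (293 higher and 269 lower) and chromosome 7 (237 and 236). On chromosome 11, 725 of 936 tested genes were called higher in the IGF2BP3 knockout and 36 lower, with a median difference of 0.644 (0.639 in batch 3 and 0.634 in batch 4) and 91.2% of genes above 0. On chromosome 21, 145 of 206 were higher and 7 lower (median 0.659), and on chromosome 17, 640 of 1097 were higher and 73 lower (median 0.377). Chromosome 2 went the other way, with 91 of 1166 higher and 694 lower (median -0.394). Chromosomes 19 and 16 had 604 of 1196 and 411 of 833 genes lower, with medians of -0.287 and -0.277. Chromosomes 11, 17 and 21 held 12.6% of the tested genes with a position, 28.4% of the genes called higher and 2.24% of those called lower. Chromosomes 2, 16 and 19 held 18.0% of the tested genes, 6.43% of those called higher and 33.0% of those called lower.

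Against the controls of batches 3 and 4, which both clones share, the median on chromosome 11 was 0.205 for the IGF2BP3 knockout and -0.466 for the IGF2BP2 knockout. The corresponding values were 0.476 and -0.164 on chromosome 21, 0.205 and -0.163 on chromosome 17, and -0.274 and 0.083 on chromosome 2. The nuclear and cytoplasmic libraries gave medians of 0.661 and 0.634 on chromosome 11, 0.609 and 0.628 on chromosome 21, and -0.419 and -0.405 on chromosome 2. The shifts were as large when genes under a mean of 5 CPM were left out (0.625 on chromosome 11, 0.675 on chromosome 21 and -0.407 on chromosome 2). Whether the clones differ in DNA copy number was not tested.

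**Figure D2:**
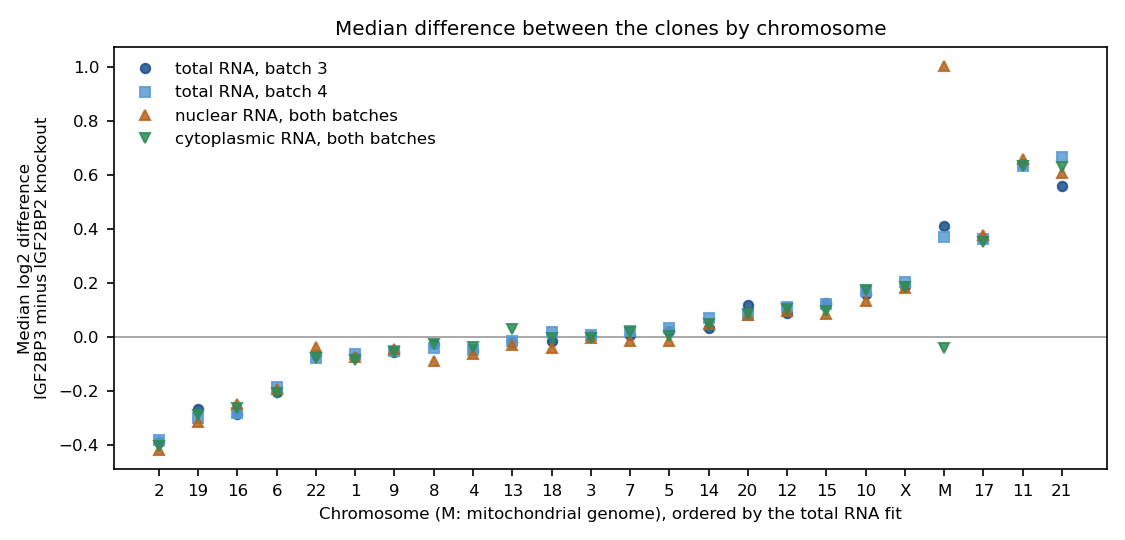
Median log2 difference (IGF2BP3 knockout minus IGF2BP2 knockout) of the tested genes on each chromosome, with one mark each for total RNA in batch 3, total RNA in batch 4, nuclear RNA and cytoplasmic RNA, ordered by the fit of total RNA. Chromosomes 21, 11 and 17 lie above 0 and chromosomes 2, 19 and 16 below 0 under every mark, and the mitochondrial genes lie apart between the nuclear (1.00) and cytoplasmic (-0.041) libraries.

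Windows of 50 neighbouring tested genes, each overlapping the next by 25, showed whether a shift ran along a whole chromosome. All 36 windows on chromosome 11, all 42 on chromosome 17 and all 7 on chromosome 21 had a median above 0, and none of the 45 on chromosome 2, 32 on chromosome 16 or 46 on chromosome 19 did. The medians ran from 0.415 to 0.996 on chromosome 11 but from 0.021 to 0.748 on chromosome 17. On chromosomes 2 and 19 they ran from -0.707 to -0.029 and from -0.971 to -0.023. Some windows on chromosomes 17, 2 and 19 were thus hardly shifted. All windows were also above 0 on chromosomes 10 (27) and 20 (17), where the highest stood at 0.341 and 0.224. In windows of 25 genes 89 of 90 were above 0 on chromosome 17, and 2 windows each were above 0 on chromosomes 2 and 19. The window with the highest median, chr11:64230278-65413525, stood at 0.996, with 47 of its 50 genes called higher, none called lower and all 50 above 0. In it, PRDX5, a peroxiredoxin, was at 232 and 212 CPM against 95.6 and 103 CPM, FAU, which encodes a ribosomal protein fused to a ubiquitin-like protein, had a difference of 0.59, and SF1, a splicing factor, was not called (adjusted p = 0.483, edgeR). Chromosome 7 had a median of 0.007, but its windows ran from -0.890 to 0.563. The lowest of them, chr7:138594285-143730409, had 40 genes lower and 1 higher. It holds UBN2, a histone chaperone subunit (107 and 116 CPM against 228 and 237 CPM), and HIPK2, a nuclear kinase (155 and 164 CPM against 298 and 341 CPM). Of the 2027 genes with a position and a called difference of at least 1, 1538 still had one after the median of their chromosome was subtracted, an alternative chosen after the data were seen.

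Zinc finger genes, many of which encode KRAB-type transcriptional repressors and lie in clusters on chromosome 19, were mainly lower in the IGF2BP3 knockout. Of 476 tested, 268 were lower and 57 higher, with a median of -0.312. After the chromosome median was subtracted the median was -0.177. On chromosome 19, 152 of 208 were lower and 5 higher (median -0.586), while the other 988 genes of that chromosome had a median of -0.232 with 452 lower and 149 higher. Zinc finger genes on other chromosomes had 115 of 265 lower and 51 higher (median -0.145). The window chr19:56643145-58362751, of which 36 genes are zinc finger genes, had a median of -0.971 with 43 genes lower and none higher. ZNF274, a repressor that binds zinc finger gene clusters, was at 28.8 and 28.4 CPM in the IGF2BP3 knockout, 69.0 and 66.0 CPM in the IGF2BP2 knockout and 23.8 to 29.2 CPM in the controls. ZNF146 was at 101 and 107 CPM against 281 and 271 CPM, with controls from 155 to 175 CPM. For the whole family the median against the shared controls of batches 3 and 4 was 0.034 for the IGF2BP3 knockout and 0.347 for the IGF2BP2 knockout.

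The integrated stress response is switched on by kinases that phosphorylate eIF2α, for example when amino acids are short or proteins misfold. General translation then falls while ATF4 protein is made, and ATF4 with its partners activates genes for amino acid synthesis and transport, tRNA charging and feedback. Many of these genes carry a composite element that C/EBP and ATF proteins bind, with the letters TGATGNAA on one strand and TTNCATCA on the other. The sequences below are stretches of RefSeq promoter windows (GRCh38.p14) of 5 members of the list, shown because the RNA differences of this pathway can be read beside them. The motif letters are in capitals and each sequence runs 5′ to 3′ on the strand of its gene.
ATF3, chr1:212565180-212565259, plus strand: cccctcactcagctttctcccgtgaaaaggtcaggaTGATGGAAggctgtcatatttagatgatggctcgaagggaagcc
CEBPG, chr19:33374035-33374112, plus strand: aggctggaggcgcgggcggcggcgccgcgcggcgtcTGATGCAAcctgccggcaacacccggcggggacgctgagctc
ASNS, chr7:97872433-97872512, minus strand: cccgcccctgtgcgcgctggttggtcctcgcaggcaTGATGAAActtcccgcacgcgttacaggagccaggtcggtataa
CHAC1, chr15:40953226-40953305, plus strand: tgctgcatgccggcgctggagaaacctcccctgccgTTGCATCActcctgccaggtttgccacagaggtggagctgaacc
FGF21, chr19:48755434-48755513, plus strand: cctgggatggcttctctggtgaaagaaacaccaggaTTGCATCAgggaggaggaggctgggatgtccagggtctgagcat
Counted on both strands, 10 of the 29 listed genes with a RefSeq window (34.5%) held the motif in the 250 bases before to 50 bases after a start. The share was 2.82% of the 12394 tested genes with a window and 4.46% of all 27305 genes with a window. A match in letters is a description and not a binding site.

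Of the 35 stress response genes tested, 30 were lower in the IGF2BP3 knockout and 2 higher. Their median difference was -0.760, and 13 were lower by at least 1 on the log2 scale. The 10 genes with the motif had 9 lower and 1 higher (median -0.631), and the 19 with a window and no match had 16 lower and 1 higher (median -0.866). The nuclear libraries gave 30 of 35 lower and the cytoplasmic libraries 31 of 35, where 27.5% and 31.2% of all tested genes were lower. Against the shared controls of batches 3 and 4 the median of the list was -0.176 for the IGF2BP3 knockout and 0.448 for the IGF2BP2 knockout. The controls themselves differed by batch, with list sums of 4363 and 4337 CPM in batches 1 and 2 and 6828 and 6960 CPM in batches 3 and 4. The IGF2BP3 knockout, at 6586 and 6479 CPM, lay between these control pairs, and the IGF2BP2 knockout, at 9907 and 10078 CPM, above both.

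Among the transcription factors of the pathway, ATF3 was at 58.1 and 58.9 CPM in the IGF2BP3 knockout and at 222 and 230.5 CPM in the IGF2BP2 knockout, with controls from 29.9 to 33.0 CPM (difference -1.97, SE 0.0620, adjusted p = 7.95e-23, edgeR). CEBPG, a C/EBP protein that pairs with ATF4, was at 85.7 and 86.3 CPM against 328 and 315 CPM. The controls of CEBPG were at 79.4 and 78.1 CPM in batches 1 and 2 and at 103 and 109 CPM in batches 3 and 4. Both genes were thus far above the controls in the IGF2BP2 knockout. NUPR1, a stress-induced nuclear protein, was at 3.605 and 3.28 CPM against 17.6 and 19.8 CPM. ATF4 itself was at 984 and 942 CPM in the IGF2BP3 knockout and 899 and 877 CPM in the IGF2BP2 knockout and was not called (difference 0.09, adjusted p = 0.188, edgeR). DDIT3, the proapoptotic factor CHOP, was not called either (34.9 and 32.1 CPM against 36.3 and 37.7 CPM, adjusted p = 0.0824, edgeR).

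The targets followed with varied size. TRIB3, a pseudokinase that feeds back on ATF4, was at 37.0 and 39.0 CPM in the IGF2BP3 knockout and at 179 and 188 CPM in the IGF2BP2 knockout, with controls from 20.05 to 26.2 CPM. FGF21, a secreted metabolic hormone, was at 0.365 and 0.846 CPM against 5.50 and 5.59 CPM, and INHBE, an activin subunit taken from the list of TGF-beta ligands, was at 14.7 and 12.8 CPM against 71.0 and 70.9 CPM. In all 3 genes the IGF2BP2 knockout was highest and every control was below both clones. SLC7A11, the cystine transporter, was at 166 and 151 CPM against 368 and 385 CPM, with controls at 31.3 and 36.3 CPM in batches 1 and 2 and at 177 and 169 CPM in batches 3 and 4. SLC7A5, the transporter of large neutral amino acids, was at 259 and 262 CPM against 528 and 576 CPM, with controls at 208 and 202 CPM in batches 1 and 2 and at 426 and 409.6 CPM in batches 3 and 4. PSAT1, of serine synthesis, was at 409 and 408 CPM against 782 and 776 CPM. Controls of these transporters and of PSAT1 (184 and 188 CPM, then 497 and 506 CPM) differed by batch. The median of the stress response list between the clones was -0.790 within batch 3 and -0.834 within batch 4.

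Smaller differences were seen for CHAC1, a glutathione-degrading enzyme (-0.65), and ASNS, asparagine synthetase (-0.45, adjusted p = 0.000207, edgeR). The 2 genes that were higher in the IGF2BP3 knockout were CARS1, the cysteinyl-tRNA synthetase (146 and 136 CPM against 104 and 101 CPM, difference 0.44), and PCK2, the mitochondrial phosphoenolpyruvate carboxykinase (difference 0.14, adjusted p = 0.0439, edgeR). PCK2 was no longer called with DESeq2, nor without IGF2BP3 knockout replicate 1, where its difference was 0.0603, nor without either IGF2BP2 knockout replicate. CARS1 lies on chromosome 11 and stood at -0.203 once the median of that chromosome was subtracted. YARS1, a tyrosyl-tRNA synthetase outside the list, was at 291 and 309 CPM against 615 and 647 CPM.

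**Figure D3:**
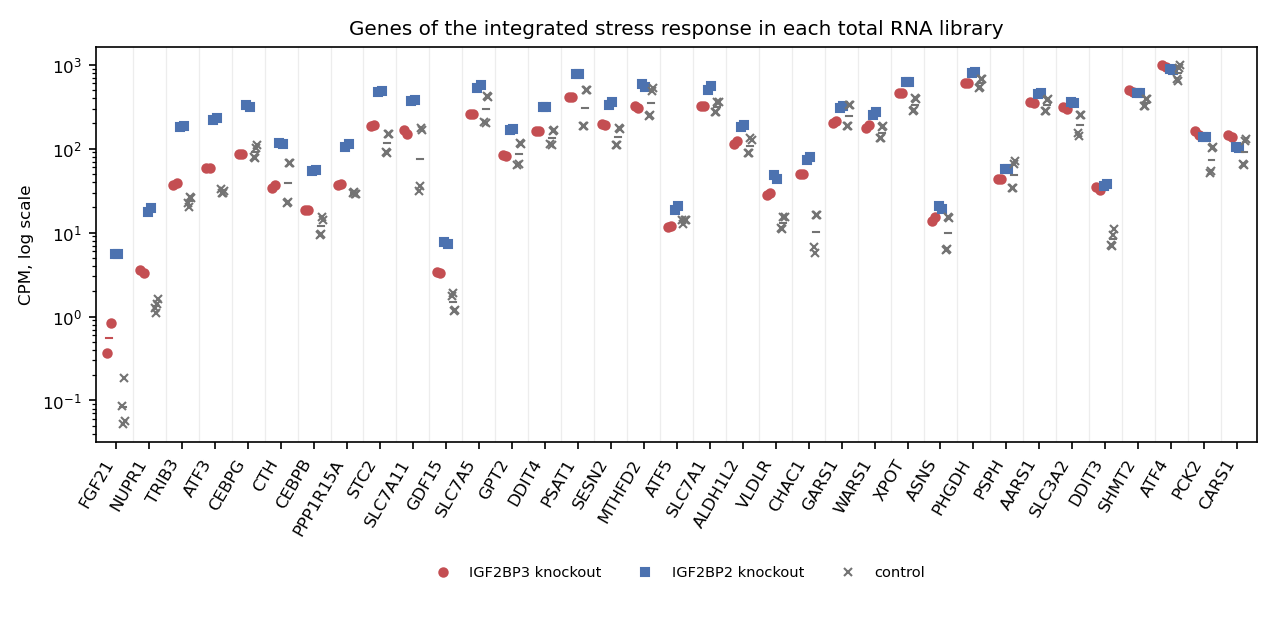
CPM in each library for the 35 tested integrated stress response genes on a log axis, ordered by the difference between the clones, with red circles for the IGF2BP3 knockout, blue squares for the IGF2BP2 knockout, grey crosses for the controls and short dashes for group means. Blue squares lie above red circles from FGF21 onward through most of the list, and the order turns only at its end, where CARS1 stands.

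Immediate early genes, which are transcribed within minutes of a growth or stress signal, were also lower in the IGF2BP3 knockout for 13 of 21 members, with 3 higher and a median of -0.666. JUN was at 180.4 and 179.6 CPM against 540.5 and 582 CPM, with controls from 208 to 268 CPM. EGR1, a zinc finger factor, was at 86.3 and 91.4 CPM against 261 and 293 CPM, and the controls, at 12.7 to 13.6 CPM, were below both clones. FOSB was at 11.4 and 14.7 CPM against 45.2 and 50.7 CPM. ATF3 is in this list and in the stress response list. Against the shared controls of batches 3 and 4 the median of the immediate early genes was 0.610 for the IGF2BP3 knockout and 1.27 for the IGF2BP2 knockout.

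Type I interferons are secreted after a cell senses foreign RNA or DNA. Through IFNAR receptors and JAK kinases they induce effector genes whose promoters often hold an interferon-stimulated response element, searched here as GAAA, any 2 bases and GAAA again, or TTTC, any 2 bases and TTTC again on the other strand. Such stretches from RefSeq windows (GRCh38.p14) are shown for 4 effectors that were higher in the IGF2BP3 knockout and for ISG15, which was lower, so that the letters can be set beside the 2 directions. Capitals mark the matches, and the sequence of each gene runs 5′ to 3′ on its own strand.
OAS3, chr12:112938295-112938376, plus strand: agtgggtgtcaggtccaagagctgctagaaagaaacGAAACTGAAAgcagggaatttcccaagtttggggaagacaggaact
TRIM5, chr11:5685075-5685137, minus strand: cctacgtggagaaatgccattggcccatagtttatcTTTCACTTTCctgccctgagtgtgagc
IFIT1, chr10:89392471-89392552, plus strand: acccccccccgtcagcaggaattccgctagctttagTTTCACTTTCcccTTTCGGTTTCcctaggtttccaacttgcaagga
EPSTI1, chr13:42992246-42992327, minus strand: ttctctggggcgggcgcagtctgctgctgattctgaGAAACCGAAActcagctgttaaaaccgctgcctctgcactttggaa
ISG15, chr1:1013348-1013429, plus strand: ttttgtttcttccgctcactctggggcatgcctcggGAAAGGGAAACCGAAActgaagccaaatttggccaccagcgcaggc
In IFIT1 2 matches stand apart, and in ISG15 2 matches overlap. Of the 35 tested effector genes with a window, 23 (65.7%) held the motif. Among the 12394 tested genes with a window the share was 3.82%, and among all 27305 genes with a window 4.38%.

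Interferon-stimulated effector genes were mainly higher in the IGF2BP3 knockout. Of 71 listed, 51 passed the filter on low counts, and of these 34 were higher, 7 lower and 10 not called. Their median difference was 0.473 (0.484 in batch 3 and 0.465 in batch 4), and 0.357 after the chromosome median was subtracted. With DESeq2 25 were higher and 3 lower, without IGF2BP2 knockout replicate 1 the counts were 25 and 4, and without IGF2BP2 knockout replicate 2 they were 29 and 3. The nuclear libraries called 28 of 49 higher and 6 lower, and the cytoplasmic libraries 33 of 50 higher and 7 lower, where 26.9% and 31.3% of all tested genes were higher. Genes with the motif had 13 higher, 6 lower and 4 not called (median 0.270), and the 12 with a window and no match had 9 higher and none lower (median 0.271). Against the shared controls of batches 3 and 4 the median of the list was 0.987 for the IGF2BP3 knockout and 0.318 for the IGF2BP2 knockout.

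Among the effectors that act on RNA, 12 of 17 were higher and 2 lower. OAS3, which makes the oligoadenylate that activates RNase L, was at 26.3 and 29.6 CPM in the IGF2BP3 knockout and at 2.97 and 2.99 CPM in the IGF2BP2 knockout, with controls from 2.52 to 3.46 CPM (difference 3.21, SE 0.133, adjusted p = 1.06e-19, edgeR). APOBEC3B, a cytidine deaminase, was at 26.8 and 25.6 CPM against 3.89 and 4.73 CPM, with controls from 3.32 to 4.75 CPM. For these 2 genes the IGF2BP2 knockout lay in or near the range of the controls. IFIT1, which binds RNA with a foreign 5′ end, was at 11.1 and 11.3 CPM against 3.21 and 3.20 CPM, with controls at 4.14 to 8.02 CPM between the clones. EIF2AK2, the kinase PKR, was lower, at 88.6 and 95 CPM against 117 and 123 CPM (difference -0.41). EIF2AK2 lies on chromosome 2, whose median was -0.394.

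Of the 8 tested effectors that act at membranes or on capsids, 6 were higher and none lower. TRIM5, which targets retroviral capsids, was at 17.8 and 18.7 CPM in the IGF2BP3 knockout and at 4.76 and 4.48 CPM in the IGF2BP2 knockout, with controls from 4.52 to 6.02 CPM. IFITM2 and IFITM3, which hinder fusion of virus with cell membranes, were at 28.2 and 26.7 CPM against 7.35 and 8.74 CPM and at 14.5 and 11.8 CPM against 4.14 and 4.56 CPM. TRIM5, IFITM2, IFITM3 and TRIM21 lie on chromosome 11, whose median difference was 0.644, and their own differences of 1.96, 1.73, 1.56 and 2.47 were larger. TRIM21, a cytosolic antibody receptor, was at 12.5 and 11.8 CPM against 2.10 and 2.17 CPM. ISG15, the ubiquitin-like modifier, went the other way, at 4.29 and 4.97 CPM against 11.99 and 11.3 CPM, with controls from 4.58 to 6.62 CPM (difference -1.36, SE 0.138, adjusted p = 3.28e-10, edgeR). TRIM21 and ISG15 belong to other groups of the list. The GTPase and scaffold group, with TRIM21, had 4 of 6 higher and 1 lower. The ubiquitin-like group, with ISG15, had 2 of 6 higher and 1 lower, and the PARP family 1 of 3 higher and 2 lower. The other induced genes had 9 of 11 higher and 1 lower.

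**Figure D4:**
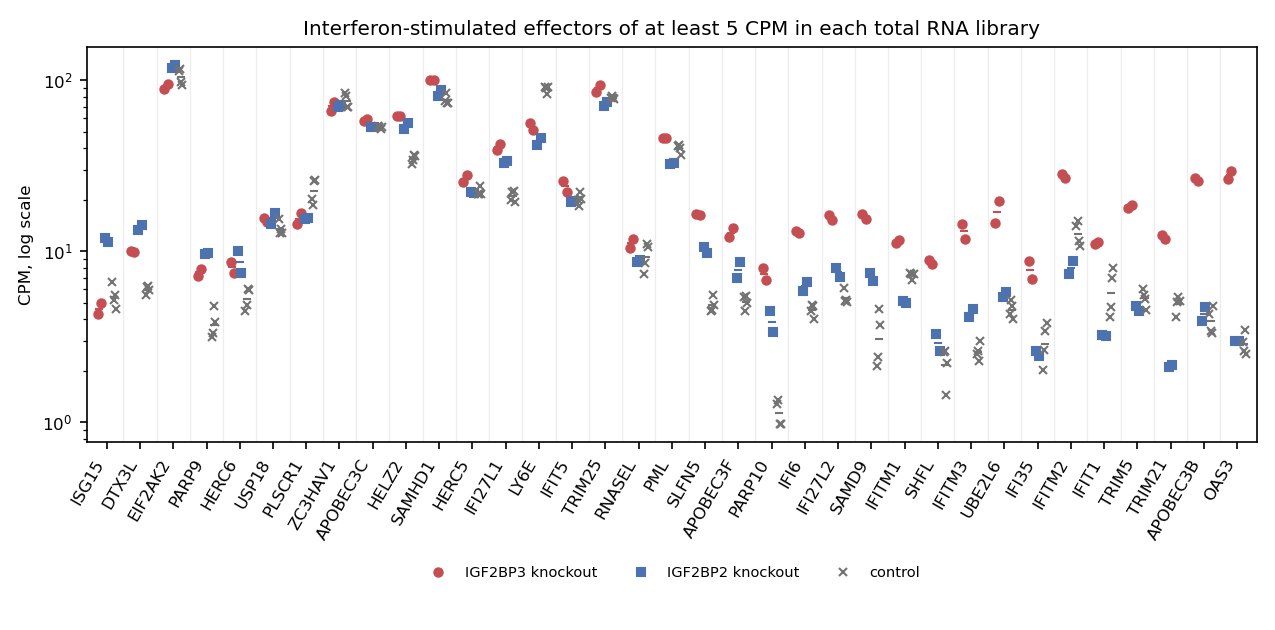
CPM in each library on a log axis for the 35 interferon-stimulated genes with a mean of at least 5 CPM, ordered by difference from ISG15 to OAS3, with red circles for the IGF2BP3 knockout, blue squares for the IGF2BP2 knockout, grey crosses for the controls and short dashes for group means. Red circles lie above blue squares for most genes, and the gap is widest at OAS3 (26.3 and 29.6 CPM against 2.97 and 2.99 CPM).

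The genes upstream of these effectors were less one-sided. Of 59 tested innate sensors and signalling genes, 25 were higher and 14 lower, with a median of 0.129 (0.068 after the chromosome medians were subtracted). None of the 6 listed interferon genes passed the filter on low counts. IKBKE, the kinase that phosphorylates IRF3 and IRF7, was at 12.3 and 11.1 CPM in the IGF2BP3 knockout and at 1.42 and 1.58 CPM in the IGF2BP2 knockout, with controls from 8.07 to 9.79 CPM nearer to the former. With IRF7, described above, it was among 8 genes of the list higher by at least 1. STAT3 and STAT2 were higher, at 144 and 156 CPM against 77.5 and 72.7 CPM and at 102 and 109 CPM against 64.7 and 65.5 CPM. IRF9, a transcription factor of the interferon response, was not called (adjusted p = 0.33, edgeR). IFNAR2, a subunit of the type I interferon receptor encoded on chromosome 21, was at 22.4 and 24.7 CPM against 11.4 and 9.25 CPM. The RNA sensor IFIH1 (MDA5) was lower, at 2.19 and 2.19 CPM against 3.65 and 4.44 CPM, as was REL, an NF-κB subunit (20.3 and 21.2 CPM against 37.5 and 35.8 CPM).

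MHC class I genes, which present peptides of the cell to T cells, had 15 of 25 higher and 4 lower (median 0.334). ERAP2, which trims the peptides, was at 20.3 and 18.0 CPM in the IGF2BP3 knockout and at 4.82 and 3.71 CPM in the IGF2BP2 knockout, with controls from 2.98 to 4.11 CPM. PSME1, a proteasome activator subunit, was at 73.4 and 72.9 CPM against 34.4 and 31.3 CPM. The peptide loading group, with ERAP2 and the chaperone CALR (708 and 726 CPM against 351 and 346 CPM), had 7 of 9 higher and 1 lower, and the chains themselves had 3 of 6 higher and none lower.

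Enzymes of cholesterol synthesis were higher in the IGF2BP3 knockout for 16 of 20, and none was lower. The regulators of the pathway had 4 higher and 3 lower of 7. TM7SF2, a sterol reductase on chromosome 11, was at 56.9 and 54.4 CPM in the IGF2BP3 knockout and at 16.4 and 15.4 CPM in the IGF2BP2 knockout, with controls from 10.97 to 14.3 CPM. LSS, lanosterol synthase on chromosome 21, was at 217 and 206 CPM against 91.2 and 84.9 CPM. INSIG1, a sterol-responsive regulator, was at 125 and 114 CPM against 59.6 and 57.7 CPM. SQLE, squalene epoxidase, differed less, by 0.29. It was at 99.2 and 100.02 CPM against 81.5 and 78.6 CPM, while all 4 controls, at 196 to 322 CPM, were above both clones. The whole list had a median of 0.418, and 0.355 after the chromosome medians were subtracted. Its median against the controls of batches 3 and 4 was -0.105 for the IGF2BP3 knockout and -0.402 for the IGF2BP2 knockout.

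Glycolytic enzymes were higher for 14 of 18 and lower for 3, with a median of 0.427, and 0.211 after the chromosome medians were subtracted. Both clones lay below the controls of batches 3 and 4, with medians of -0.605 for the IGF2BP3 knockout and -0.932 for the IGF2BP2 knockout. PKM, pyruvate kinase, was at 1375 and 1271 CPM in the IGF2BP3 knockout and 753 and 743 CPM in the IGF2BP2 knockout, with controls from 1177 to 1472 CPM. HK2, an inducible hexokinase, was lower, at 28.1 and 28.5 CPM against 61.4 and 64.4 CPM. Of 11 genes known to be induced by hypoxia, 2 were higher and 5 lower. VEGFA, the vascular growth factor, was at 78.0 and 76.9 CPM against 236 and 236 CPM, with controls from 51.3 to 80.8 CPM.

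**Figure D5:**
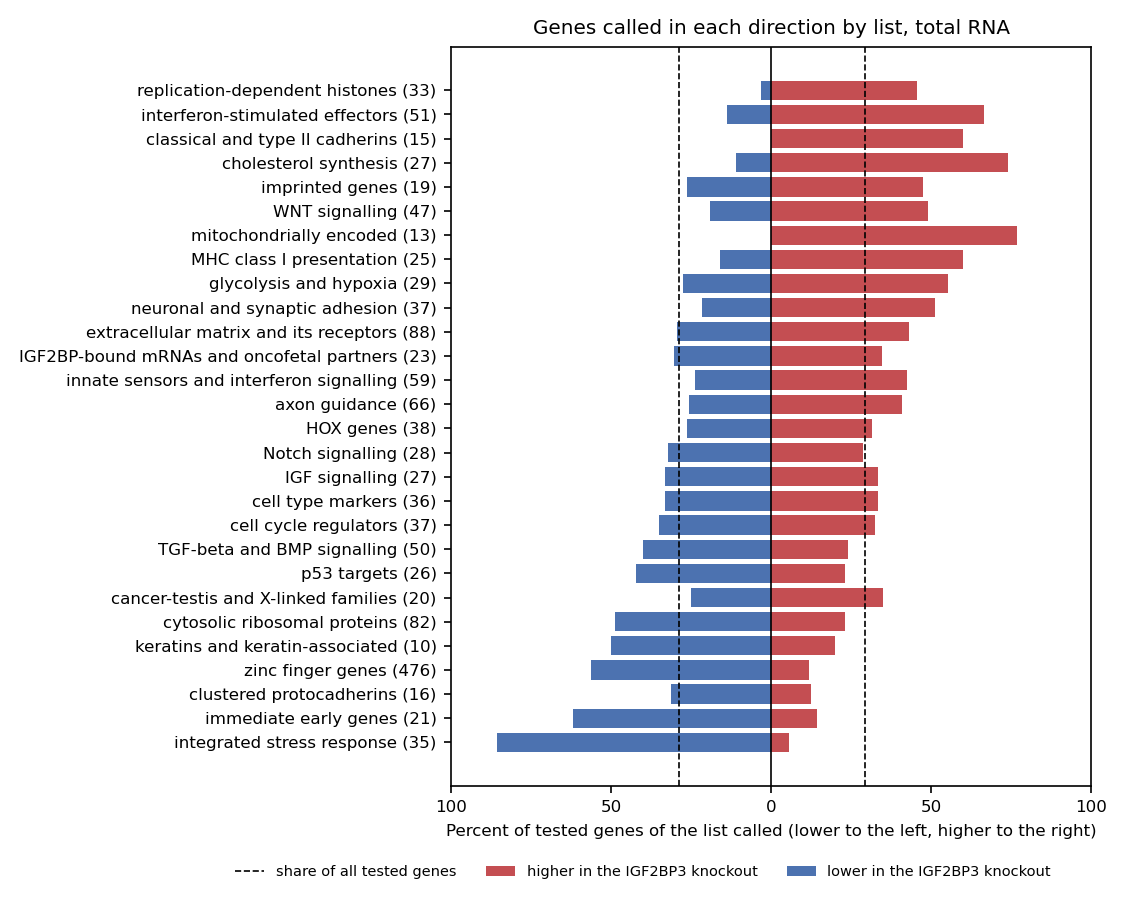
Percent of the tested members of each of 28 gene lists called higher in the IGF2BP3 knockout (bars to the right) and lower (bars to the left), with dashed lines at the shares over all tested genes (29.4% and 28.7%). The integrated stress response, immediate early and zinc finger lists extend furthest past the line on the left, and mitochondrially encoded, cholesterol synthesis and interferon-stimulated genes extend past the line on the right.

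Genes of the cell surface and matrix differed in both directions. Of 88 extracellular matrix genes and receptors, 38 were higher and 26 lower. SPARC, a collagen-binding matrix protein, was at 63.3 and 62.9 CPM in the IGF2BP3 knockout and at 9.83 and 11.05 CPM in the IGF2BP2 knockout, with controls from 3.42 to 4.10 CPM. COL2A1, a fibrillar collagen chain, was at 190.5 and 185 CPM against 72.1 and 75.6 CPM. TNC, the matrix glycoprotein tenascin C, was lower, at 5.95 and 5.32 CPM against 34.5 and 35.7 CPM, with controls from 2.76 to 3.84 CPM. All these controls lay below both clones. Cadherins and catenins had 9 of 15 higher and none lower (median 0.418, and 0.267 after the chromosome medians were subtracted), with JUP, plakoglobin, at 190.5 and 182 CPM against 70.1 and 75.8 CPM. Of 54 clustered protocadherins 16 were tested, with 2 higher and 5 lower, all 5 of these by at least 1 on the log2 scale. Their median was -0.498, and -0.528 after the chromosome medians were subtracted. PCDHGC4 of the gamma cluster, 1 of the 2 that were higher, was at 7.09 and 7.41 CPM against 0.989 and 1.11 CPM.

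Neuronal adhesion genes were higher for 19 of 37 and lower for 8. ASTN1, a protein of neuron migration, was at 6.72 and 8.16 CPM against 0.309 and 0.213 CPM, and TENM1, a teneurin, was lower at 4.74 and 4.23 CPM against 19.5 and 19.3 CPM. Axon guidance genes had 27 of 66 higher and 17 lower. WNT signalling genes had 23 of 47 higher and 9 lower (median 0.369), and its inhibitors, SFRP1 among them, had 4 of 7 higher and none lower. Genes of TGF-beta and BMP signalling had 12 of 50 higher and 20 lower, with INHBA, an activin subunit, at 0.243 and 0.597 CPM against 5.25 and 4.99 CPM. Notch genes had 8 of 28 higher and 9 lower, shares close to those of all genes.

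HOX genes, which set position along the body axis, differed by cluster. HOXD genes had 5 of 9 lower and none higher (median -0.296), but their median was 0.098 after that of chromosome 2 was subtracted. HOXB genes had 5 of 9 higher and 1 lower (median 0.431, and 0.054 after that of chromosome 17 was subtracted). HOXA13, at the distal end of its cluster, was at 73.9 and 77.8 CPM against 17.8 and 20.8 CPM, with controls from 39.0 to 41.97 CPM between the clones.

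mRNAs known to be bound by IGF2BP proteins, with partners, had 8 of 23 higher and 7 lower (median 0.149, and -0.012 after the chromosome medians were subtracted), and the IGF signalling list 9 of 27 higher and 9 lower. IGF2, the growth factor that gave the family its name, was at 12.4 and 14.2 CPM in the IGF2BP3 knockout and at 4.82 and 4.90 CPM in the IGF2BP2 knockout, with controls from 1.20 to 2.35 CPM below both. IGFBP6, which binds IGF2, was at 3.89 and 2.88 CPM against 0.556 and 0.384 CPM. CDK6, a G1 kinase, was lower at 45.6 and 49.3 CPM against 82.3 and 85.9 CPM. Cell cycle regulators as a list had 12 of 37 higher and 13 lower, with CDKN2B, an inhibitor of CDK4 and CDK6, at 45.3 and 44.7 CPM against 17.6 and 17.9 CPM. p53 targets had 6 of 26 higher and 11 lower. Imprinted genes had 9 of 19 higher and 5 lower, and their median of 0.396 became 0.008 after the chromosome medians were subtracted. Cancer-testis and related X-linked families had 7 of 20 tested members higher and 5 lower, and keratins with keratin-associated proteins had 2 of 10 higher and 5 lower.

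Genes for ribosomal proteins were lower for 40 of 82 and higher for 19, by small amounts (median -0.106). RPS2 was the most different of those named, at 1439.8 and 1280.3 CPM in the IGF2BP3 knockout against 2656 and 2651 CPM in the IGF2BP2 knockout. The mitochondrially encoded genes were higher for 10 of 13 (median 0.340), but only 1 was higher by at least 1 on the log2 scale. That gene was MT-ND6, a complex I subunit, at 324 and 418 CPM against 84.98 and 87.8 CPM. In nuclear RNA all 13 were higher (median 1.06), and in cytoplasmic RNA 4 were higher and 6 lower (median -0.041). Replication-dependent histone genes, whose mRNAs mostly lack a poly(A) tail, were counted in poly(A)-selected libraries. Of these, 15 of 33 were higher and 1 lower (median 0.525), with H1-2 at 64.2 and 67.2 CPM against 27.8 and 30.1 CPM.

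Markers of cell types were set beside these lists. Of 63 markers, 36 passed the filter, with 12 higher and 12 lower, and their summed level was 598 and 605 CPM in the IGF2BP3 knockout, 779 and 774 CPM in the IGF2BP2 knockout and 616 to 640 CPM in the controls. Neural markers long known in HEK293 cells had 2 of 8 higher and 3 lower. NEFM, a neurofilament, was at 34.7 and 38.7 CPM in the IGF2BP3 knockout, 179 and 186 CPM in the IGF2BP2 knockout and 179 to 204 CPM in the controls. EYA1, a regulator of kidney development, was at 5.71 and 5.67 CPM against 33.7 and 34.4 CPM, with controls from 24.3 to 27.3 CPM. In both, the IGF2BP2 knockout was the clone near the controls. These 2 genes are from the 12 lower markers and do not stand for the list. Over the 36 tested markers the median against the controls of batches 3 and 4 was 0.290 for the IGF2BP3 knockout and 0.228 for the IGF2BP2 knockout. Kidney lineage markers had 3 of 7 higher and 3 lower. Markers of blood summed to 7.05 and 6.76 CPM against 3.28 and 4.05 CPM with 7 of 10 not tested, and the blood markers GATA1 and HBG1 had no count in the 4 libraries. Among the 27 markers not tested no library held more than 13 counts of a marker. The part of these markers in the differences above was not tested.

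The same clones in nuclear and cytoplasmic RNA gave the differences again. Over all genes tested, 54.5% were called in nuclear RNA and 62.5% in cytoplasmic RNA. Of the genes called in total RNA, 10595 were also tested in nuclear RNA, and 98.0% had the same direction there, with 8438 called in it and 8 called in the opposite one. In cytoplasmic RNA 10502 were tested, 98.2% had the same direction, 9107 were called in it and 21 in the opposite one. Of the genes with a difference of at least 1, 84.8% and 88.5% were called the same way in nuclear and cytoplasmic RNA. For CTSF the nuclear and cytoplasmic differences were 7.83 and 7.27, for ADM2 -6.12 and -6.48, for OAS3 2.78 and 2.71 and for TRIB3 -2.43 and -2.34. These libraries come from the same 2 clones and batches, so they repeat the measurement and not the knockout.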

How the data were processed

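Poly(A)-selected stranded libraries of total RNA (also nuclear and cytoplasmic) were sequenced as paired 50-base reads, per the labels' protocols. The authors deposited counts per gene and FPKM, which also divides by gene length, with STAR, featureCounts, DESeq2 1.44.0 and GRCh38 named in the submitters' processing notes; annotation and strand setting are not given in the sources used here. Counts without a symbol made up 0.674% to 0.713% of a library.

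The deposited counts were fitted with edgeR 4.0.16 (R 4.3.3; TMM scaling, filterByExpr by group, quasi-likelihood test) on the 6 libraries of batches 3 and 4 of each RNA kind, with genotype and batch. The controls set the batch term and the spread and have no weight in the contrast. Batches 1 and 2 hold neither knockout compared here and entered only as an alternative, together with their IGF2BP1 knockout libraries. In total and nuclear RNA that alternative rests on an IGF2BP1 knockout library deposited identically for both RNA kinds. Batch comes from the labels; deviations of same-batch libraries of the 2 clones correlated at 0.0210 in total, -0.0841 in nuclear and -0.0109 in cytoplasmic RNA. A clone with 0 counts was set to 3 counts over both libraries for a bound; ratios on 1 to 3 counts carry exact 95% intervals. Gene positions come from GENCODE 29 and promoter windows from RefSeq; of 62703 genes in the table, 58279 had a position.

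The genes named are the 3 family members, the 10 most different per direction by the smaller within-batch log2 difference of CPM + 0.5 (mean of at least 1 CPM), the 5 of highest CPM per direction with a difference of at least 1, up to 3 per list and direction by p, the 3 most abundant per direction among genes present in 1 clone, and the 3 of highest CPM in each of 3 windows. ATF4, DDIT3, FGF21, NUPR1, CHAC1, ASNS, PSAT1, SLC7A11, TRIM5, TRIM21, IFIT1, IFITM3, EPSTI1, STAT2, IFNAR2, IRF9, IFIH1, SQLE, INSIG1 and FOSB fall outside this rule and were chosen after their values were seen. Lists and members were chosen with earlier results of these data known. On simulated counts for this comparison (17995 genes), 89 of 100 genes changed by 1 and 100 of 100 changed by 2 on the log2 scale were called, with 6 false calls. The simulation had no batch effect, and the spread of a gene depended only on its level. Only these genes were changed, all of at least 1 CPM. It therefore does not give the error rate in the real data, where 58.1% of genes were called. Alternatives were 2 other scalings, DESeq2 1.42.0, other filters, other sets of libraries, no batch term, limma 3.58.1 on log2(FPKM + 1) and log2(FPKM + 0.1), and differences minus the chromosome median.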

Additional observations from a re-analysis of the deposited data

Results flagged for a closer look

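Among the 4 control libraries, 1 stood apart from the others for 3 of the 188 named genes, by the ratio of its gap to the range. It held 0.0573 CPM of B3GALT5-AS1, 2.29 CPM of LHX1 and 0.0854 CPM of KRTAP19-3, not all in the same library. Chance alone marks about 1 in 20 such groups, and the controls have no weight in the contrast.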

How the results depend on the processing

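The count of genes called in total RNA was 10761. Without the replicate block, that is without pairing the libraries by batch, it was 11081, and over the other settings on counts it ran from 7399 (DESeq2) to 11587 (only the 4 knockout libraries). Leaving out each library in turn gave 7942 (without IGF2BP2 knockout replicate 2) to 11738 (without control replicate 4). No gene called in the main analysis was called in the opposite direction under any of these settings. On log2(FPKM + 1) with no filter on low values limma called 4248 genes in total RNA (2254 higher, 1994 lower), 2716 for nuclear and 5304 for cytoplasmic libraries. The number of genes with a called difference of at least 1, 2141, was 1474 with DESeq2, 187 on log2(FPKM + 1), 794 on log2(FPKM + 0.1) and 179 on log2(FPKM + 1) with no filter; a pseudocount draws the differences of low genes towards 0. The stress response list had 27 to 31 members lower and 0 to 2 higher with DESeq2, with all libraries of batches 1 to 4, on log2(FPKM + 1) and without either replicate of a knockout. Genes whose sign turned were IGF2BP1 (-0.124 to 0.0144 over single libraries left out) and SF1 (-0.0194 to 0.104), neither of them called in the main analysis, and, after the chromosome median was subtracted, CARS1 (-0.203), RPS3 (-0.0930), NCAM1 (-0.0542) and FAU (-0.0563). Of 185 named genes, 117 kept their direction but moved by more than the SD between their 2 within-batch differences, and 64 moved by less. The number with a difference of at least 1 was then 1696. No scaling moved the median of all genes by more than 0.0193 in total, 0.0421 in nuclear and 0.0200 in cytoplasmic RNA. Differences of genes under a few counts are limited by depth.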
